A study of Homo sapiens with 5 samples.

Results

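Human mitochondria carry their own genome, and the genes encoded there are described here in TF-1 cells with and without a knockout of MTSS1. The members are the genes of the count table whose symbol starts with MT-, which are 33 of its 27328 genes. They comprise 13 mRNA genes, 2 rRNA genes and 18 tRNA genes. GENCODE 44 lists 37 such genes, and the tRNA genes MT-TW, MT-TN, MT-TS1 and MT-TK, which have no row in the table, were not analysed here. The filter on low counts left 25 members for testing, namely all 13 mRNAs, both rRNAs and 10 tRNAs.

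The cells are TF-1, a human line from an acute myeloid leukemia with erythroid and myeloid features, grown with GM-CSF. The 2 control libraries were made from the pools sgCtrl 1 and 2, which carry Cas9 and a sgRNA against the renilla luciferase gene. The 3 knockout libraries came from the sgMTSS1_1, sgMTSS1_2 and sgMTSS1_3 pools, each with Cas9 and another sgRNA against MTSS1, a gene for a scaffold protein of the actin cytoskeleton. Every pool joined 4 single-cell clones, so that a replicate is a pool of clones, each knockout replicate has its own sgRNA, and p-values measure the spread between these pools. This is the spread of the pools that remained after an outlier test by the authors, who set aside the pools sgCtrl 3 and sgMTSS1_4, not analysed here. RNA was primed at poly(A) with a QuantSeq 3′ kit, sequenced as single reads of 50 bases and counted per gene.

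Total counts were 2849979 and 3408827 in the control libraries and ranged from 5442639 to 8854899 in the knockout libraries. Depth and condition therefore cannot be told apart. Levels are given as CPM, that is, counts divided by TMM-scaled library totals (edgeR) and set to a common scale. The mRNA of the targeted gene, MTSS1, was at 204 and 87.9 CPM in the control, compared with 104, 139 and 49.9 CPM in the knockout pools. The groups overlapped, and this mRNA does not check the labels. All 12 markers of TF-1 cells were detected, with sums between 1036 and 1704 CPM. Markers of T cells summed to 0.313 to 5.92 CPM, of fibroblasts to 0.181 to 1.04 CPM and of epithelium to 0 to 0.894 CPM. Markers of B cells summed to 8.13 and 11.9 CPM in the control versus 3.24 to 4.15 CPM in the knockout pools, and their part in any result was not tested.

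The mitochondrial genome is a small circle that is transcribed on both strands into long precursors covering many genes. The tRNAs lie between the other genes and are cut out, which frees the rRNAs and mRNAs, and most mRNAs then receive a short poly(A) tail, which in several of them completes the stop codon. The mRNAs encode core subunits of respiratory complexes I, III and IV and of the ATP synthase, the rRNAs and tRNAs serve their translation inside the organelle, and mitochondrial respiration is a studied drug target in acute myeloid leukemia. The nuclear genome holds many copies of mitochondrial DNA, and reads that fit such a copy as well as the original do not map uniquely.

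The tRNA sequences printed here are the 2 members that passed the test and the tRNA with the next smallest adjusted p-value. They are written 5′ to 3′ on the transcribed strand of GRCh38, with the longest run of A in capitals, because the libraries were primed at poly(A). MT-TG is at chrM:9991-10058 on the plus strand, MT-TE at chrM:14674-14742 on the minus strand and MT-TT at chrM:15888-15953 on the plus strand.
MT-TG: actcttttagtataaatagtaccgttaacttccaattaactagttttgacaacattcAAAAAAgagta
MT-TE: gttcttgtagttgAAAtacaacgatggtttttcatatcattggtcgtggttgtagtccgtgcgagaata
MT-TT: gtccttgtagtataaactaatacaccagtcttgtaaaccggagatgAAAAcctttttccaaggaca
The A run of MT-TG has 6 bases and starts at base 58 of 68, whereas that of MT-TE has 3 bases and starts at base 14 of 69.

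The 3′ ends of 4 mRNA genes are shown because the libraries were primed at poly(A). These mRNAs have the largest differences of the class (MT-ND1, MT-CO2 and MT-ND5) or the largest share of its counts (MT-CO3). Whether each RNA ends where its annotated gene ends was not tested. Each line holds the last 30 bases of the gene on the plus strand of GRCh38, with the letters of its stop codon in capitals. The positions are chrM:4233-4262 for MT-ND1, chrM:8240-8269 for MT-CO2, chrM:9961-9990 for MT-CO3 and chrM:14119-14148 for MT-ND5.
MT-ND1: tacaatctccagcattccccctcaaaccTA
MT-CO2: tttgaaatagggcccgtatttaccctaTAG
MT-CO3: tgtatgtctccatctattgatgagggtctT
MT-ND5: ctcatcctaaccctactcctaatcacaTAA
MT-ND1 and MT-CO3 are among the 6 mRNAs whose stop codon is incomplete in the genome, the others being MT-ND2, MT-ND3, MT-ND4 and MT-CYB.

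Part of the mitochondrial genome cannot be told from the nuclear genome by a read of 50 bases. Of the 16520 words of 50 bases in the mitochondrial chromosome of GRCh38, 23.8% had an exact copy in the nuclear chromosomes. Of the 4615 nuclear placements, 61.2% lay in chr1:629084-634924, a stretch that GENCODE annotates with pseudogenes such as MTND1P23, MTND2P28 and MTCO2P12. The stretch of 30 bases in which MT-CO2 and MTCO2P12 differ most is printed here with its 3 mismatches in capitals, at chrM:8138-8167 and chr1:633309-633338, both on the plus strand.
MT-CO2: acCgctacacgaccGggggtatactacggT
MTCO2P12: acTgctacacgaccAggggtatactacggC
Over 682 aligned bases with 1 gap, these genes differed at 12 positions, an identity of 98.2%. MTND1P23 matched the last 352 bases of MT-ND1 with 3 mismatches, an identity of 99.1%. MTND2P28 matched all 1042 bases of MT-ND2 with 17 mismatches, an identity of 98.4%. TF-1's own mitochondrial sequence was not used here.

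The share of such words differed widely between members. It was 100% for MT-TE, MT-TQ and MT-TA and for the 4 tRNA genes without a row, and 0% for 8 tRNA genes, including MT-TG, MT-TT, MT-TS2, MT-TF and MT-TP. Among the mRNAs it ranged from 0% for MT-ND3 and MT-ND4L to 50.6% for MT-CO1. Within the last 300 bases of the gene, it was 60.2% for MT-ND1, 17.5% for MT-CO2, 6.37% for MT-CO3 and 0.797% for MT-ND5.

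All 3 classes took a smaller mean share of the counts in the knockout pools, and the groups were apart for mRNAs and tRNAs but not for rRNAs. The 13 mRNAs took 7.15% and 5.36% of the counts in control pools 1 and 2, compared with 3.43%, 4.29% and 4.24% in knockout pools 1 to 3. Their means were 6.25% ± 1.27 (SD, n = 2) in control and 3.99% ± 0.487 (SD, n = 3) in knockout pools, and every knockout pool lay below both control pools. The 2 rRNAs took 6.55% and 3.11% in the control against 3.90%, 2.99% and 2.41% in the knockout pools, which overlapped, since the sgMTSS1_1 pool lay above control pool 2. The 18 tRNAs took 0.208% and 0.161% in the control, compared with 0.108%, 0.0837% and 0.0622% in the knockout pools. Their control mean was 2.17 times the knockout mean, with no overlap. The 95% Wilson intervals of these shares were at most 0.0598 percentage points wide, and reflect counting error alone, as no molecular identifiers are named that would tell copies of a molecule apart. For all 33 genes together the difference in means was −4.09 percentage points, which became −1.45 without control pool 1 and −6.73 without control pool 2. In bulk RNA, fewer mitochondria or genomes per cell and less RNA from each cannot be told apart.

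**Figure D1:**
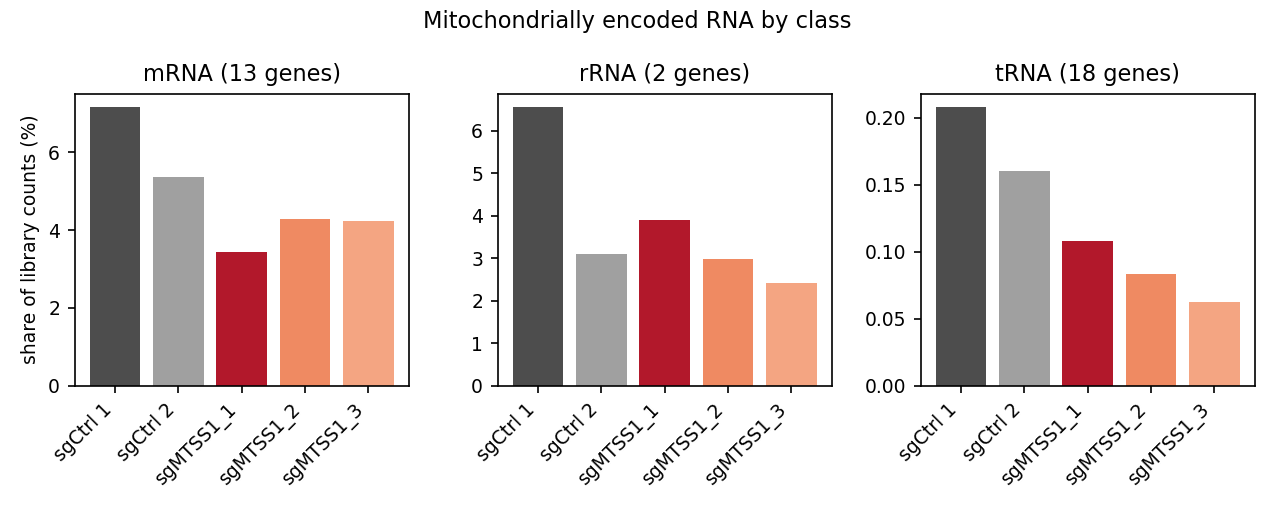
Percentage of the library's counts in mitochondrial mRNA, rRNA and tRNA genes, with 1 bar per library and a scale of its own for each class. The 3 knockout pools lie below both control pools for mRNA (3.43% to 4.29% against 5.36% and 7.15%) and tRNA, but not for rRNA.

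By respiratory complex, the groups were apart for complex IV and the ATP synthase. The 3 complex IV mRNAs took 2.90% and 2.89% of the counts in the control versus 1.52%, 1.84% and 2.01% in the knockout pools. MT-CO3 held 75964 of their 82749 counts in control pool 1 and 95408 of 98429 in control pool 2. MT-CO2 went the other way, with 1330 and 346 CPM in the control against 2558 to 3492 CPM in the knockout pools. MT-CO1 overlapped between the groups. The lower share of complex IV is thus that of MT-CO3 and not of all 3 mRNAs. The 2 ATP synthase mRNAs took 1.23% and 0.947% in the control against 0.581%, 0.738% and 0.498% in the knockout pools. The 7 complex I mRNAs took 2.60% and 1.35% in the control, compared with 1.10% to 1.41% in the knockout pools, and the single complex III mRNA took 0.423% and 0.176% against 0.228% to 0.323%, both with overlap. The 7 counted genes encoded on the minus strand took 0.165% and 0.0598% in the control versus 0.0456% to 0.0541% in the knockout pools.

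Other parts of the libraries also differed in mean share, not all in the same direction. The 86 ribosomal protein genes of the cytosol took a mean of 8.43% of the counts in the control against 14.5% in the knockout pools, and the 116 nuclear pseudogenes of mitochondrial genes took 0.294% and 0.176% against 0.144% to 0.180%. The 4 nuclear retained RNAs took 0.612% and 0.805% against 0.821% to 0.908%, with MALAT1 at 4274 and 6401 CPM in the control, compared with 7198 to 8291 CPM in the knockout pools. KCNQ1OT1 went the other way, with 279 and 257 CPM in the control against 160, 251 and 199 CPM in the knockout pools. Of the 4, 0 were called in either direction. The part of these gene groups in the mitochondrial shares was not tested. With ribosomal protein counts left out of the total, the difference for all mitochondrial genes was −3.88 percentage points.

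Gene by gene, 2 of the 25 tested members were differentially expressed, both of them tRNAs and both lower in the knockout. All 14391 genes were fitted by edgeR's quasi-likelihood method, p-values were adjusted after Benjamini and Hochberg, and a gene was called if its adjusted p was under 0.05 and its level changed by more than 1 on the log2 scale. The 2 lower genes, MT-TG and MT-TE, are 8% of the members tested, while 5.18% of all genes were called in either direction and 1.01% were called lower. No member was called higher, against 4.17% of all genes. At an unadjusted p-value under 0.05, 8 members were lower and 3 were higher, where the shares over all genes were 9.23% and 14.1%. Every knockout pool lay below both control pools for 10 members (40%, against 19.2% of all genes) and above them for 3 (against 22.2% of all genes), while 12 overlapped. Log2-fold changes were below 0 for 19 of 25 members (76%, against 51.7% of all genes), with a median of −0.58 against −0.03 over all genes. Over all genes, DESeq2 called 1042 higher and 244 lower of 13552 with an adjusted p, and limma-voom called 510 and 124 of 14391. Among the members, DESeq2, with values for 33 of them but not an adjusted p for all, called 8, 6 lower and 2 higher, and limma-voom called 0. The count was 1 without control pool 1, 8 without control pool 2 and 0 without any one of the sgMTSS1_1, sgMTSS1_2 and sgMTSS1_3 pools, and the median was −0.10 without control pool 1. The single call without control pool 1 was MT-CO2, and the 8 without control pool 2 were MT-ND5, MT-ND6, MT-TF, MT-TL2, MT-TP, MT-TT and the genes called with all libraries. With all libraries thinned to 2849979 counts, MT-TG and MT-TE were again the 2 members called. Over all genes, 600 were called higher and 145 lower with all libraries. These numbers were 107 and 4 without the sgMTSS1_1 pool, 323 and 24 without sgMTSS1_2, and 183 and 8 without sgMTSS1_3. Without a knockout pool, calls were thus lost over the whole table, and this loss is not particular to single genes named here. Without control pool 1, calls over the whole table were not lost, though that fit leaves a single control library. Control pool 1 lay above control pool 2 in 21 of the 25 members, not counting MT-TC, which had 9 counts in control pool 1 and 0 in control pool 2.

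**Figure D2:**
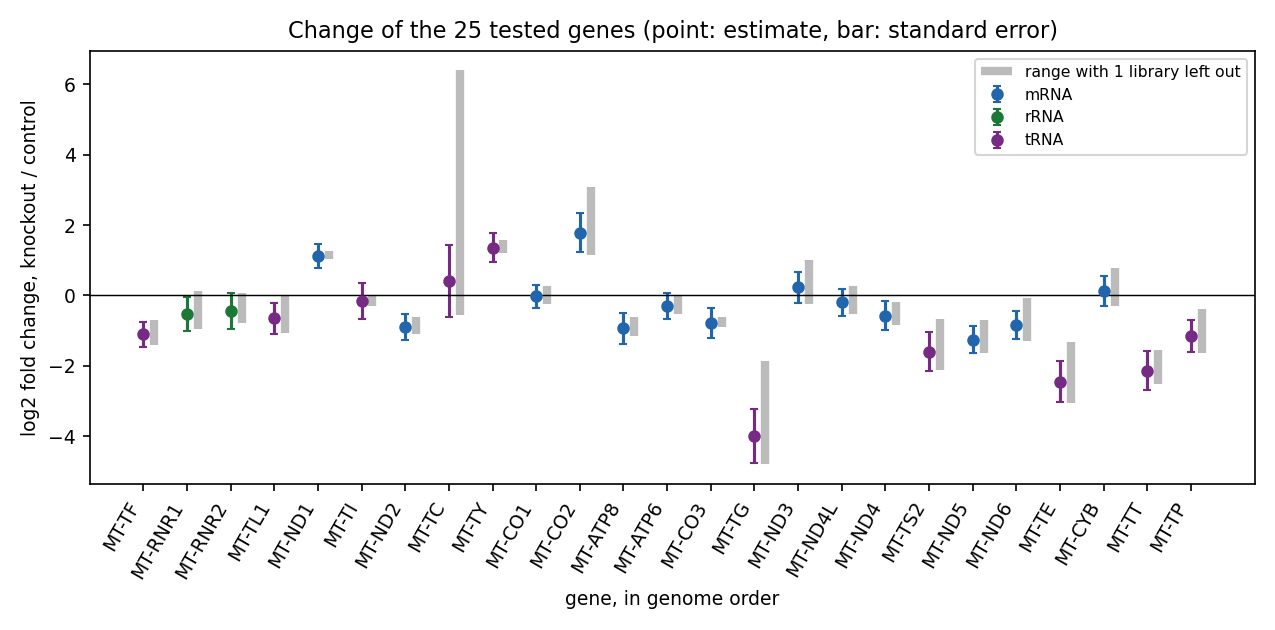
Log2-fold change of knockout against control for the 25 tested members in genome order, with points for the estimate, thin bars for its standard error and grey bars for the range with 1 library left out. MT-TG at −4.00 and MT-TE at −2.45 lie lowest and MT-CO2 at 1.78 lies highest, and the grey bar of MT-TC reaches 6.40 where the remaining control library has 0 counts, which is not a bound on its change.

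Among the complex I subunits, MT-ND1 and MT-ND5 had the largest differences, in opposite directions. MT-ND1 (ENSG00000198888), which encodes a membrane subunit near the ubiquinone site, was at 1017 and 856 CPM in the control versus 2241, 1828 and 2060 CPM in the knockout pools. The knockout pools all lay above the control pools, with a log2-fold change of 1.13 (SE 0.35, edgeR quasi-likelihood, Benjamini-Hochberg adjusted p = 0.0934). MT-ND5 (ENSG00000198786), which encodes a proton-pumping subunit, was at 4193 and 2158 CPM in the control against 1213, 1436 and 1314 CPM in the knockout pools. The knockout pools all lay below, with a log2-fold change of −1.27 (SE 0.39, edgeR quasi-likelihood, Benjamini-Hochberg adjusted p = 0.0898). Neither passed the threshold with all libraries, DESeq2 called both, MT-ND1 was also called without the filter on low counts, and MT-ND5 without control pool 2.

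MT-ND2 and MT-ND4 encode the pumping subunits related to MT-ND5. MT-ND2 was at 4949 and 3448 CPM in the control, compared with 2013 to 2375 CPM in the knockout pools, with no overlap and a log2-fold change of −0.90 (edgeR adjusted p = 0.175). MT-ND4 was at 8620 and 5347 CPM against 3897 to 5120 CPM, also without overlap, with −0.58 (edgeR adjusted p = 0.429), which was −0.18 without control pool 1. MT-ND6, the only mRNA encoded on the minus strand, was at 766 and 324 CPM in the control versus 261, 375 and 281 CPM in the knockout pools. Its groups overlapped, and its log2-fold change of −0.83 was −0.07 without control pool 1. MT-ND3 and MT-ND4L overlapped between the groups, with log2-fold changes of 0.23 and −0.20. Their sign turned without control pool 2 for MT-ND3 (−0.24) and without control pool 1 for MT-ND4L (0.26), and the end of MT-ND4L overlaps the start of MT-ND4, so that counts at this junction are uncertain.

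Of the complex IV subunits, MT-CO2 had the largest positive log2-fold change of the members. MT-CO2 (ENSG00000198712), whose protein takes up electrons from cytochrome c, was at 1330 and 346 CPM in the control against 2558, 2606 and 3492 CPM in the knockout pools. All knockout pools lay above both control pools, which themselves differed 3.84-fold. The log2-fold change was 1.78 (SE 0.56, edgeR quasi-likelihood, Benjamini-Hochberg adjusted p = 0.0967). It did not pass the threshold with all libraries and the main settings, and did so without control pool 1, where it was 3.07, without the filter on low counts, where it was 1.93, and by DESeq2. MT-CO3 (ENSG00000198938), a further core subunit, was at 23751 and 28432 CPM in the control, compared with 14122, 14874 and 16178 CPM in the knockout pools, without overlap and with a log2-fold change of −0.79 (edgeR adjusted p = 0.301). MT-CO1, the catalytic subunit, was at 791 and 554 CPM in the control versus 606 to 752 CPM in the knockout pools, and its log2-fold change of −0.03 took the other sign under DESeq2 (0.01) and without control pool 1 (0.27), among others.

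MT-CYB, the complex III subunit that oxidises ubiquinol, was at 3774 and 1786 CPM in the control against 2620 to 3261 CPM in the knockout pools. These ranges overlapped, and the log2-fold change was 0.12, a value that was −0.04 when libraries were scaled by their totals alone and −0.29 without control pool 2. MT-ATP8 and MT-ATP6 encode subunits of the membrane part of the ATP synthase and overlap by some of their bases. MT-ATP8 was at 7001 and 6938 CPM in the control, compared with 4011, 4803 and 2107 CPM in the knockout pools, without overlap and with −0.94 (edgeR adjusted p = 0.234). MT-ATP6 was at 3935 and 2680 CPM against 2447 to 2918 CPM, with overlap and a log2-fold change of −0.31 that was 0.01 without control pool 1. How reads in the shared bases were assigned is not given in the sources used here, so both values are uncertain.

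**Figure D3:**
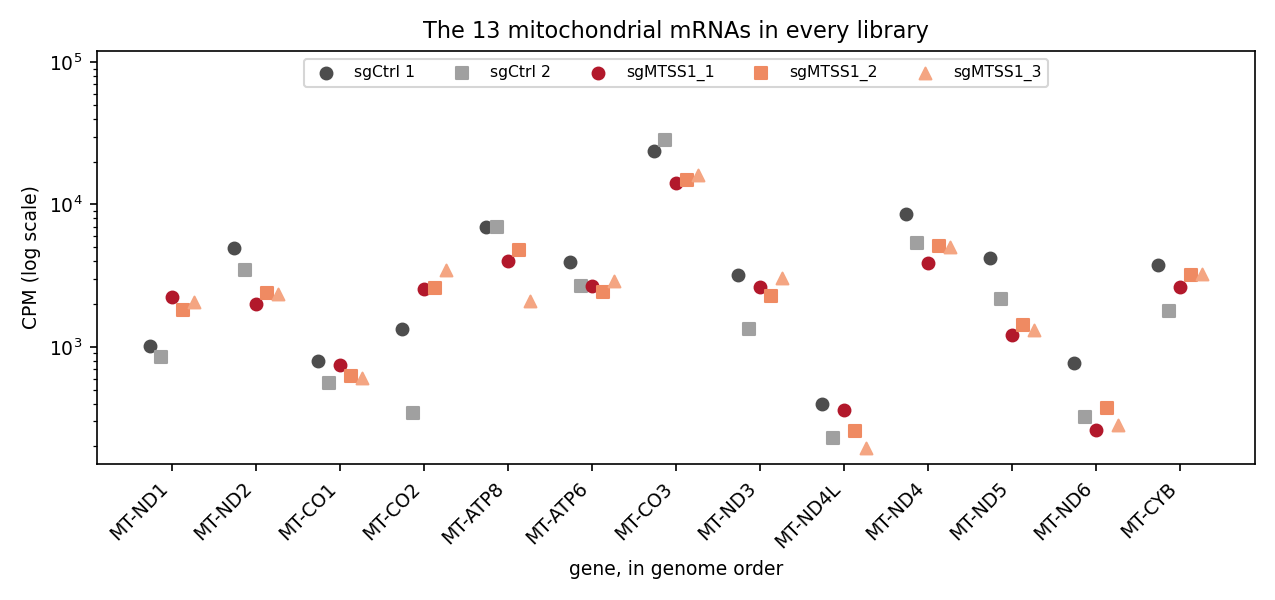
CPM of the 13 mitochondrial mRNAs in each of the 5 libraries on a log scale, in genome order. The 3 knockout pools lie above both control pools for MT-ND1 and MT-CO2, below them for MT-ND2, MT-ATP8, MT-CO3, MT-ND4 and MT-ND5, and overlap with them for the other 6.

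With edgeR, 0 of the 13 mRNAs passed the threshold. At an unadjusted p-value under 0.05, 2 were higher and 2 lower, where 14.1% and 9.23% of all genes were. DESeq2 called MT-ND1 and MT-CO2 higher and MT-ND5 lower, and limma-voom called 0. Over the whole table DESeq2 called 1042 higher and 244 lower of 13552 genes with an adjusted p. Over the 13 mRNAs, which share libraries and depth, Spearman's rho of the log2-fold change was −0.07 with gene length, 0.11 with the share of copied words in the last 300 bases and −0.34 with the longest run of A.

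Taken as shares of the mitochondrial mRNA counts alone, a measure that does not depend on the total, MT-CO2 and MT-ND1 had the largest ratios of knockout to control mean, with log2 ratios of 2.35 and 1.64. MT-CO2 made up 2.09% and 0.636% of these counts in the control versus 6.50%, 6.18% and 8.15% in the knockout pools. MT-ND1 made up 1.60% and 1.57% in the control against 5.70%, 4.33% and 4.81% in the knockout pools. The shares of MT-CO1, MT-ND3 and MT-CYB also lay higher in every knockout pool, those of MT-ND2 and MT-ND5 lower, and 6 overlapped. MT-CO3 held the largest share of counts in all libraries, with 37.3% and 52.2% in the control, compared with 35.2% to 37.8% in the knockout pools. By its mean share, MT-CO2 ranked 10 of 13 in the control and 5 in the knockout pools. On a share per kb of gene, these ranks were 9 and 4, while MT-ATP8 and MT-CO3 held the first 2 ranks in both groups. Counts here come from ends of RNAs, so that dividing by length favours short genes such as MT-ATP8 and does not rank abundance.

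**Figure D4:**
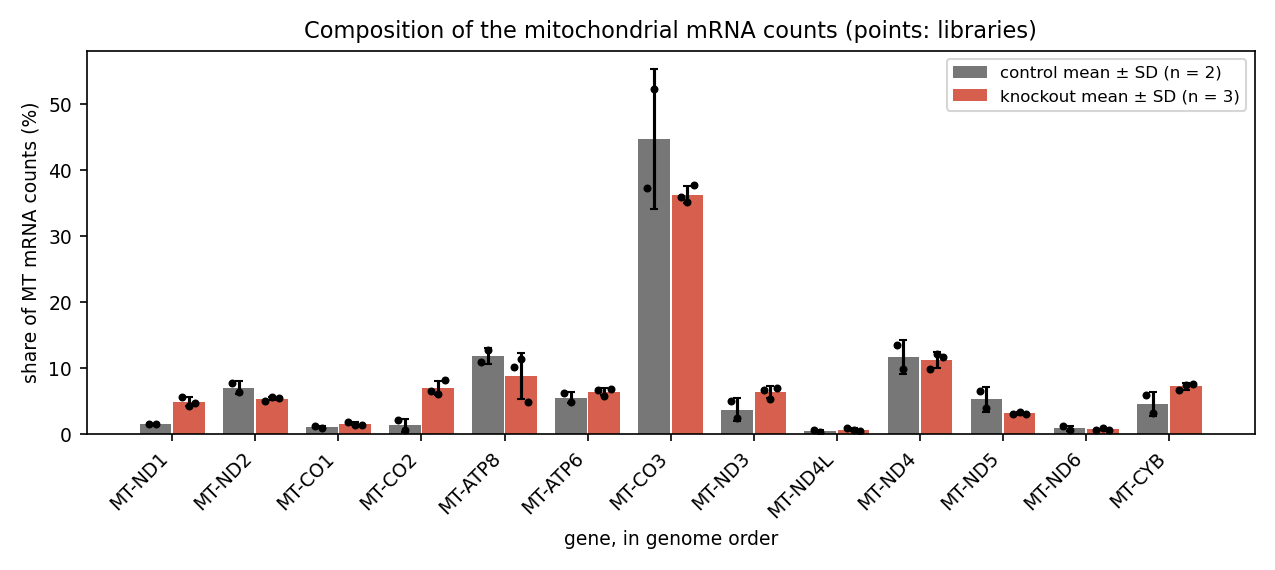
Each mitochondrial mRNA as a percentage of the counts of all 13 in the library, with bars for the group mean, error bars for the SD and points for libraries. MT-CO2 has a mean of 1.36% in the control pools and 6.94% in the knockout pools, MT-ND1 has 1.58% and 4.95%, while MT-CO3 has the highest bar in both groups.

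Ratios between genes of the same strand showed the same order. Per 1000 counts of MT-CO3 there were 56.0 and 12.2 counts of MT-CO2 in the control versus 181, 175 and 216 in the knockout pools. Per 1000 counts of MT-ND2 there were 206 and 248 counts of MT-ND1 in the control against 1113, 770 and 877 in the knockout pools. These ratios were chosen after the values of the genes were known.

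The counts of the nuclear copies of MT-CO2 and MT-ND1 did not move in parallel with their parent genes. Per 1000 counts of MT-CO2, its 7 counted pseudogenes had 829 and 1302 counts in the control, compared with 141, 211 and 144 in the knockout pools. For MT-ND1 and its 11 pseudogenes the values were 365 and 712 in the control versus 204, 273 and 235 in the knockout pools. Such shifts were not particular to these genes. For MT-ATP6 the values were higher in every knockout pool, with 22.8 and 20.2 in the control against 78.8, 42.5 and 37.7. They were also higher in every knockout pool for MT-CO3 and MT-ND2, and lower in every one for MT-CYB, MT-ND3 and MT-ND4L. For MT-ND4, the parent gene with the least variation, they ranged from 24.5 to 27.0 over all 5 libraries. MTCO2P12, with the most counts of the MT-CO2 copies, was at 671 and 376 CPM in the control against 164, 322 and 253 CPM in the knockout pools, without overlap and with a log2-fold change of −1.09 (edgeR adjusted p = 0.129). MTND1P23 (−0.04) and MTND2P28 (−0.46) overlapped between the groups.

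When the counts of the copies were added to their parent gene, an alternative chosen after seeing the data, the log2-fold change of MT-CO2 was 1.05 (edgeR adjusted p = 0.241) and that of MT-ND1 0.82 (adjusted p = 0.191). MT-CO2 with its copies was at 2433 and 797 CPM in the control, compared with 2919, 3155 and 3995 CPM in the knockout pools, still without overlap. Of 34 tested pseudogenes, 2 were called higher and 1 lower (4.17% and 1.01% of all genes). MTCO2P2 (2.72) and MTCO3P22 (1.89) were higher and MTCO1P15 (−2.57) lower, and all 3 calls were lost without any one of the knockout pools. The call of MTCO3P22 was also lost without control pool 2, and that of MTCO1P15 without control pool 1 and by limma-voom. Counts of a gene and of its near-identical copies are uncertain, because a few bases decide to which a read maps.

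**Figure D5:**
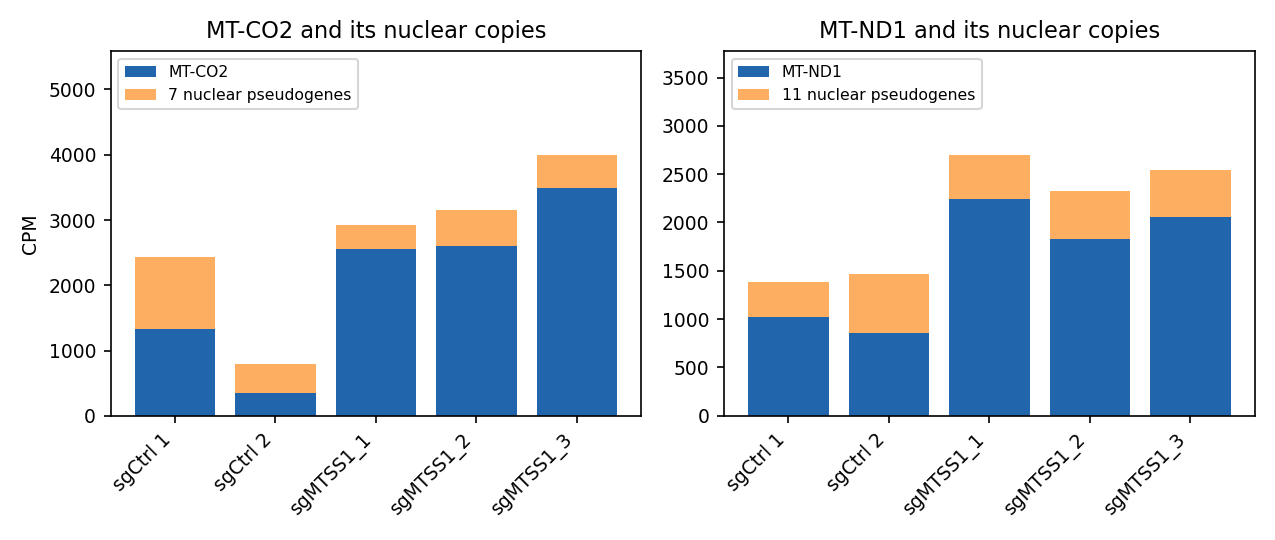
CPM of MT-CO2 and MT-ND1 (blue) with the summed CPM of their 7 and 11 nuclear pseudogenes stacked on top (orange), with 1 bar per library. The blue part is larger in every knockout pool, whereas the orange part for MT-CO2 is 1102 and 451 CPM in the control versus 361 to 549 CPM in the knockout pools.

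The rRNAs, which form the core of the mitochondrial ribosome, did not differ beyond the spread between pools. MT-RNR2, the RNA of the large subunit, was at 50752 and 27996 CPM in the control against 39212, 26286 and 21525 CPM in the knockout pools. MT-RNR1, the RNA of the small subunit, was at 7633 and 3553 CPM in the control, compared with 5613, 3142 and 2784 CPM in the knockout pools. Both overlapped between the groups, with log2-fold changes of −0.44 and −0.54 (edgeR adjusted p = 0.657 and 0.543), which were 0.06 and 0.13 without control pool 1. For the 2 rRNAs, edgeR gave 0 unadjusted p-values under 0.05, and DESeq2 and limma-voom called 0. There were 120 to 150 counts of MT-RNR1 per 1000 of MT-RNR2 in all libraries, and the ranges of the groups overlapped.

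The tRNAs had the lowest median log2-fold change of the 3 classes, −1.14 over the 10 that were tested, of which 2 were called lower (1.01% of all genes) and 5 lay below both control pools in every knockout pool (19.2% of all genes). Low-count tRNAs passed the filter only if enough libraries held them, so that these 10 do not stand for all 18. MT-TG (ENSG00000210164), the tRNA for glycine, had 185 and 25 counts in the control versus 21, 13 and 5 in the knockout pools, or 57.8 and 7.45 CPM against 2.72, 2.35 and 0.870 CPM. Every knockout pool lay below both control pools, but the control pools differed 7.76-fold from each other. The log2-fold change was −4.00 (SE 0.76, edgeR quasi-likelihood, Benjamini-Hochberg adjusted p = 0.0220), and −1.87 without control pool 1. The call was lost without control pool 1, without any one of the knockout pools and by limma-voom.

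MT-TE (ENSG00000210194), the tRNA for glutamate, had 354 and 111 counts in the control against 47, 66 and 124 in the knockout pools, or 111 and 33.1 CPM against 6.10, 11.9 and 21.6 CPM. The knockout pools lay below the control pools, with a log2-fold change of −2.45 (SE 0.58, edgeR quasi-likelihood, Benjamini-Hochberg adjusted p = 0.0431). It was −1.32 without control pool 1, and the call was lost there, without any one of the knockout pools and by limma-voom. Every 50-base word of MT-TE has an exact nuclear copy, and it adjoins MT-ND6 on the same strand. Per 1000 counts of MT-ND6 there were 144 and 102 counts of MT-TE in the control, compared with 23.3, 31.8 and 76.8 in the knockout pools. What part reads across this boundary have in its count was not tested.

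MT-TT, MT-TS2 and MT-TF, the tRNAs for threonine, for serine and for phenylalanine, also had lower CPM in every knockout pool and did not pass the threshold. MT-TT had 34 and 18 counts in the control versus 19, 5 and 11 in the deeper knockout pools, or 10.6 and 5.36 CPM against 2.46, 0.903 and 1.91 CPM, with a log2-fold change of −2.14 (edgeR adjusted p = 0.0564). MT-TS2 had 29 and 11 counts against 19, 9 and 11, or 9.07 and 3.28 CPM against 2.46, 1.62 and 1.91 CPM, with −1.60 (edgeR adjusted p = 0.127). MT-TF, at 577 and 348 CPM in the control against 280, 199 and 164 CPM in the knockout pools, had −1.11 (edgeR adjusted p = 0.102). DESeq2 called MT-TT and MT-TF, and MT-TT was also called with library totals alone, without the filter on low counts and without control pool 2, as was MT-TF without control pool 2.

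MT-TY, the tRNA for tyrosine, was the single one of the 10 tested tRNAs that lay above both control pools in every knockout pool. It had 11 and 15 counts in the control, compared with 83, 52 and 59 in the knockout pools, with a log2-fold change of 1.35 (SE 0.41, edgeR quasi-likelihood, Benjamini-Hochberg adjusted p = 0.0876). MT-TP, MT-TL1, MT-TI and MT-TC, the tRNAs for proline, leucine, isoleucine and cysteine, overlapped between the groups, with −1.16, −0.66, −0.15 and 0.41. Without control pool 1 MT-TP was at −0.39, and without control pool 2 MT-TL1 was at −0.02 and MT-TC, of which that pool had 0 counts, at −0.56. MT-TF, MT-TL1 and MT-TP took 88.4% to 97.3% of the tRNA counts in all libraries.

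The 8 tRNAs that did not pass the filter held few counts. MT-TL2, the other tRNA for leucine, had 31 and 3 counts in the control versus 1, 3 and 1 in the knockout pools, so that its difference rests on control pool 1. MT-TH had 5 and 5 counts in the control against 2, 1 and 2 in the knockout pools. MT-TA had 0 and 0 counts in the control, compared with 2, 9 and 5 in the knockout pools, at depths at which a count of 0 allows up to 3 counts per library. The other 5, MT-TV, MT-TQ, MT-TM, MT-TD and MT-TR, had 0 to 9 counts per library.

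Nuclear genes that act on mitochondrial DNA and RNA were read from the same test, in lists chosen by function. Of 9 genes for mitochondrial transcription, 2 rose and 0 fell (4.17% and 1.01% of all genes), with a median log2-fold change of 0.20 that was −0.09 without the sgMTSS1_1 pool. TFAM, which packages and transcribes mitochondrial DNA, was at 67.2 and 57.2 CPM in the control versus 314, 190 and 166 CPM in the knockout pools (1.84, edgeR adjusted p = 0.0256). TFB1M, which was put in this list although it methylates the small rRNA, was at 14.4 and 7.15 CPM against 36.4, 31.8 and 33.6 CPM (1.66, edgeR adjusted p = 0.0394). Neither gene overlapped between the groups, and both calls were lost without control pool 2 and without any one of the knockout pools, and that of TFB1M also with library totals alone.

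Of 20 genes for processing, polyadenylation and decay of mitochondrial RNA, 2 rose and 0 fell (4.17% and 1.01% of all genes), with a median of 0.01 that was −0.07 with upper-quartile factors and −0.16 with library totals alone. FASTKD2, which binds the large rRNA, rose from 17.5 and 23.8 CPM to 60.6, 52.9 and 59.3 CPM (1.48, edgeR adjusted p = 0.0307). FASTKD5, which takes part in the maturation of mRNAs that no tRNA flanks, rose from 47.5 and 51.0 CPM to 118, 93.7 and 144 CPM (1.27, edgeR adjusted p = 0.0492). Both calls were lost without any one of the knockout pools, and that of FASTKD5 also without either control pool, by limma-voom and with RLE factors, upper-quartile factors or library totals alone.

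No gene was called by edgeR among 12 for replication and the nucleoid (median 0.04, and −0.09 with library totals alone), 16 for tRNA and rRNA modification (−0.26), 15 translation factors (0.23), 6 regulators of biogenesis (−0.27) and 11 of protein quality control (0.34). Without control pool 2, the medians were −0.05 for modification, 0.03 for translation factors and 0.03 for biogenesis. The ends of these lists were POLG (−1.23) and DGUOK (0.98), TRMT61B (−1.31) and PUS1 (1.10), TACO1 (−0.61) and MTFMT (1.96), PPARGC1B (−0.91) and GABPB1 (0.44), and YME1L1 (−0.61) and HSPE1 (2.79). Of these 60 genes, 6 were higher and 3 lower at an unadjusted p-value under 0.05, where 14.1% and 9.23% of all genes were, DESeq2 called HSPE1, MTFMT and MTRES1 higher, and limma-voom called HSPE1 higher, where MTRES1 is named after its values were seen. Of 24 assembly factors, 1 rose and 0 fell (4.17% and 1.01% of all genes). This gene, COX17, a copper chaperone for complex IV, rose from 4.06 and 3.58 CPM to 65.6, 14.4 and 16.01 CPM (3.07, edgeR adjusted p = 0.0470). Its call was lost without either control pool, without the sgMTSS1_1 or the sgMTSS1_3 pool, by limma-voom, with RLE or upper-quartile factors and with at least 10 counts in every library. Of 6 markers of mitochondrial mass, 0 rose and 1 fell (4.17% and 1.01% of all genes). This marker, VDAC1, the main channel of the outer membrane, fell from 237 and 195 CPM to 78.3, 92.8 and 86.5 CPM (−1.33, edgeR adjusted p = 0.0286). The call of VDAC1 was lost without any one of the knockout pools. The median of the mass list, −0.20, was 0.15 without control pool 1.

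The nuclear subunits of the respiratory chain, which assemble with the mitochondrial ones, had a median log2-fold change of 0.51, whereas the 13 mitochondrial mRNAs had −0.31. The nuclear median was 0.18 without the sgMTSS1_1 pool and 0.33 without control pool 2. Of 80 tested, 6 rose and 1 fell, against 4.17% and 1.01% of all genes. ATP5MG, an ATP synthase subunit, rose from 156 and 218 CPM to 4048, 1736 and 2341 CPM (3.85, edgeR adjusted p = 0.00799). ATP5PO, which links the stalk of the ATP synthase to its head, rose from 104 and 98.6 CPM to 1010, 578 and 768 CPM (2.95, edgeR adjusted p = 0.00754). COX6C, a complex IV subunit, rose from 159 and 83.4 CPM to 1616, 483 and 571 CPM (2.88, edgeR adjusted p = 0.0305), and its call was lost without control pool 2 and without the sgMTSS1_1 or the sgMTSS1_3 pool. NDUFA13, a complex I subunit, fell from 193 and 141 CPM to 36.6, 34.7 and 30.3 CPM (−2.30, edgeR adjusted p = 0.00705). Without the sgMTSS1_1 pool 3 rose, where 107 of 13358 genes were called higher over the whole table. DESeq2 called 20 of 84 list genes higher and 1 lower. Over the whole table it called 1042 and 244 of 13552 genes with an adjusted p, a limit not applied to the 84. Without control pool 1 the median of the nuclear list was 0.80. The difference between the medians of the nuclear and the mitochondrial lists was not tested.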

How the data were processed

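RNA-seq was analysed for 5 libraries of TF-1 clones, 2 control and 3 MTSS1 knockout pools, grouped by their sample titles. The authors prepared QuantSeq 3′ libraries, aligned the reads to GRCh38 with HISAT2 2.1.0, used SAMtools 1.10 to drop reads without a unique position, and deposited unnormalized whole-number read counts for each Ensembl gene. The submitters' notes also name FastQC 0.11.9 and DESeq2. The counting program, the annotation, and the use of strand are not given in the sources used here. Unique mapping lowers the counts of genes with nuclear copies, and poly(A) priming counts ends of RNAs, or runs of A inside them, and not whole RNAs, so that rRNA and tRNA counts are not levels of the mature RNA.

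Counts were tested with edgeR 4.0.16 in R 4.3.3 (filterByExpr at a minimum count of 10, TMM, condition only), adjusted over 14391 genes. TMM factors ranged from 0.876 to 1.13. Standard errors are the log2-fold change divided by the root of its F statistic. The scripts were tested on simulated data. Words of 50 bases of the mitochondrial chromosome were searched on both strands of nuclear chromosomes of GRCh38, with genes from GENCODE 44, and pseudogenes were aligned locally with gaps. Python 3.11.15 (pandas 2.3.3, matplotlib 3.10.9, scipy 1.17.1) served for tables and plots.

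The members and gene lists were chosen with earlier results of these data known. All members are accounted for. From each nuclear list, the text names every called gene if there were 6 or fewer, otherwise up to 3 that rose most and up to 3 that fell most, and, if there was none, the genes at both ends of the list. Of the nuclear pseudogenes, the 3 with the most counts are named as well. Alternatives were DESeq2 1.42.0, limma-voom (limma 3.58.1), other normalization factors, other filters, thinned counts, a block for the pool number, other thresholds, and each library left out.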

Additional observations from a re-analysis of the deposited data

How the results depend on the processing

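The count of 2 differentially expressed members was 8 with DESeq2, 0 with limma-voom, 6 without a filter on low counts, 1 with at least 10 counts in every library and 11 at an unadjusted p-value under 0.05. It ranged from 0 to 8 with 1 library left out, and stayed within 1.5-fold of 2 under other normalization factors, thinned counts, and added pseudogene counts, an alternative chosen after seeing the data. The pool numbers are not stated to pair pools. The differences between pools 1 and 2 had a Pearson's r of 0.17 over genes in the 2 groups, and with the replicate block 4 members were called, with MT-TT lower (adjusted p = 0.0388 from edgeR) and MT-CO2 higher (1.93, adjusted p = 0.0332 from edgeR) beside MT-TG and MT-TE. FASTKD5 was not called under it. Of the nuclear respiratory chain subunits, 21 were then higher, compared with 6, while over all genes 894 were, compared with 600. The median log2-fold change ranged from −0.82 to −0.10 with 1 library left out and was −0.35 under the block. The share difference ranged from −6.73 to −1.45 percentage points with 1 library left out. Scaling by library totals alone moved the median of all genes to −0.17 and that of the members to −0.74.

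Of 393 values for single genes under these alternatives, 17 turned their sign, all of genes not called. With 1 library left out, log2-fold changes ranged from −0.96 to 0.13 for MT-RNR1, from −0.78 to 0.062 for MT-RNR2, from −0.23 to 0.27 for MT-CO1, from −0.53 to 0.0081 for MT-ATP6, from −0.24 to 0.99 for MT-ND3, from −0.52 to 0.26 for MT-ND4L, from −0.29 to 0.77 for MT-CYB and from −0.56 to 6.40 for MT-TC. MT-CO1 was at 0.0071 with DESeq2, 0.12 without the filter and 0.055 with at least 10 counts in every library. Under the replicate block MT-CO1 was at 0.050 and MT-ND4L at 0.021. MT-CYB was at −0.043 when scaled by totals alone. The cause was not tested. The comparison rests on 2 control pools, whose libraries were shallower than all knockout libraries.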
